A study of Mus musculus with 10 samples.

Results

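Solute carriers are membrane proteins that move nutrients, metabolites, ions and metals across the plasma membrane and the membranes of organelles, and each numbered family of Slc genes groups proteins of related sequence and, often, related cargo. Here 173 protein-coding genes with an Slc symbol were described in microglia, the resident macrophages of the brain, sorted from wild-type mice and from mice without Bhlhe40 and Bhlhe41, a pair of related transcriptional repressors. Members were chosen by their symbol and by a mean estimated count of at least 50 over all 10 libraries, so their levels are a description. The files list 53697 genes, of which 13916 were tested and 371 are protein-coding Slc genes. Another 194 Slc genes had a lower mean count, 55 of them with no count in any library, and 4 were left out by name (Slc7a11, Slc3a2, Slc7a5 and Slc40a1). All 173 members passed the count filter of the test. The minimum was reached only through DKO by 5 members, Slc25a23, Slc25a16, Slc1a1, Slc5a5 and Slc1a5, and only through WT by 1, Slc22a21. Just inside the minimum lay Slc25a23, with a mean count of 50.7, Slc5a5, Slc22a21, Slc1a1 and Slc25a43, with 60.3, and just outside it lay Slc30a1, with 49.2, Slc25a42, Slc22a4, Slc25a28 and Slc9a3r2, with 30.5.

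The groups were 5 libraries of wild-type mice (WT, C57BL/6J or Rosa26Stop-YFP, without saying which library came from which) and 5 libraries of Bhlhe40-/- Bhlhe41-/- mice (DKO), all from untreated females on the C57BL/6 background. Minimum ages of 2 and 6 months are given, without naming the libraries they belong to. Both genes are deleted in the germline, so every cell of a DKO mouse lacks them. Brains without olfactory bulb and cerebellum were digested with collagenase, and viable cells were sorted that carried CD45.2 and CD11b and lacked Ly6C, Ly6G, MHCII and CD38. Libraries are called by genotype and labelled replicate number, from WT 1 to DKO 5, and since no label says that a library is a single mouse, the p-values describe only how these libraries vary.

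Microglia take up glucose and fructose, amino acids, choline and nucleosides from their surroundings, and after engulfing cells or debris they export the breakdown products from the lysosome through transporters of the lysosomal membrane. Others of these proteins load sugars into the Golgi, exchange metabolites across the inner mitochondrial membrane, or keep iron, zinc and copper within bounds. The best known of them in microglia is Slc2a5, the fructose transporter GLUT5, which marks these cells in the brain.

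Library totals were 23382114 to 25871082 counts in WT and 22483284 to 26109349 in DKO. The 8 microglia markers examined summed to 66271 to 72206 CPM in WT (counts scaled by TMM to a common library total) and to 62480 to 73481 CPM in DKO, and 1 of them, P2ry12, fell. In WT, Bhlhe41 stood at 35.9 CPM and Bhlhe40 at 0.601 CPM; in DKO they stood at 50.9 and 0.177 CPM, so counts over the whole gene do not show the loss of Bhlhe41. The mean length of its transcripts, however, was 5878 to 6133 bases in every WT library and 1851 to 2719 bases in every DKO library. Libraries stood apart within WT. In WT 3, the non-coding RNA Gm23935 took 20.3% of TPM, against 2.85% to 6.60% in the other WT libraries and 23.2% to 26.6% in DKO. In WT 1, WT 5 and DKO 3, mitochondrially encoded genes took 1.75%, 1.54% and 1.58% of counts, against 0.986% to 1.16% in the others. Members were also counted without single libraries and, for Gm23935, on TPM recomputed without it.

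To compare levels between genes, CPM were divided by effective length in kilobases (RPKM). Members spanned 0.824 to 1532 RPKM, with a median of 15.3, against a median of 6.26 RPKM over all tested genes. Over tested genes with a mean count of at least 50, the minimum that members had to reach, the median was 12.2 RPKM. A few genes held most of the signal. In WT, Slc2a5 alone made up 16.2% ± 1.46 (SD, n = 5) of the summed RPKM of all 173 members, the top 5 made up 39.6% ± 0.622 and the top 15 made up 62.5% ± 1.46. The shares in DKO were 16.2% ± 0.313, 38.9% ± 1.56 and 60.7% ± 1.85. Above 100 RPKM stood 21 members, 82 lay between 10 and 100 RPKM, and 70 lay at or under 10 RPKM.

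Slc2a5 (chr4:150119283-150144169, GRCm38) was the most abundant member. Its CPM were 2432, 2487, 2353, 2145 and 2133 in WT 1 to WT 5, and 2046, 2062, 2184, 2229 and 2258 in DKO 1 to DKO 5. The groups overlapped and the difference did not pass the test (log2 fold change -0.10, standard error (SE) 0.08, adjusted p = 0.46, edgeR). Next came Slc25a5, the ADP/ATP carrier of the inner mitochondrial membrane, at 1089 ± 161 RPKM in WT and 1055 ± 175 in DKO (SD, n = 5 each). Slc11a1, the divalent metal transporter of phagosomes that is also known as Nramp1, stood at 458 ± 62.7 and 507 ± 36.0 RPKM. The fourth, Slc35b2, which brings the sulfate donor PAPS into the Golgi, stood at 400 ± 90.5 and 313 ± 67.5 RPKM. After these came the lysosomal nucleoside transporter Slc29a3, with 337 ± 23.1 and 243 ± 40.0 RPKM, the proton-coupled folate transporter Slc46a1, with 294 ± 47.4 and 259 ± 32.4 RPKM, and the Golgi protein Slc35c2, with 247 ± 13.6 and 304 ± 24.4 RPKM. The other members of the top 15 were Slc29a1, Slc7a7, Slc25a11, Slc7a8, Slc44a2, Slc12a9, Slc16a6 and Slc50a1, down to 154 ± 7.45 RPKM in WT for Slc50a1. Neighbours in this order mostly differed by less than their spread, so the order below Slc11a1 is not firm.

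**Figure D1:**
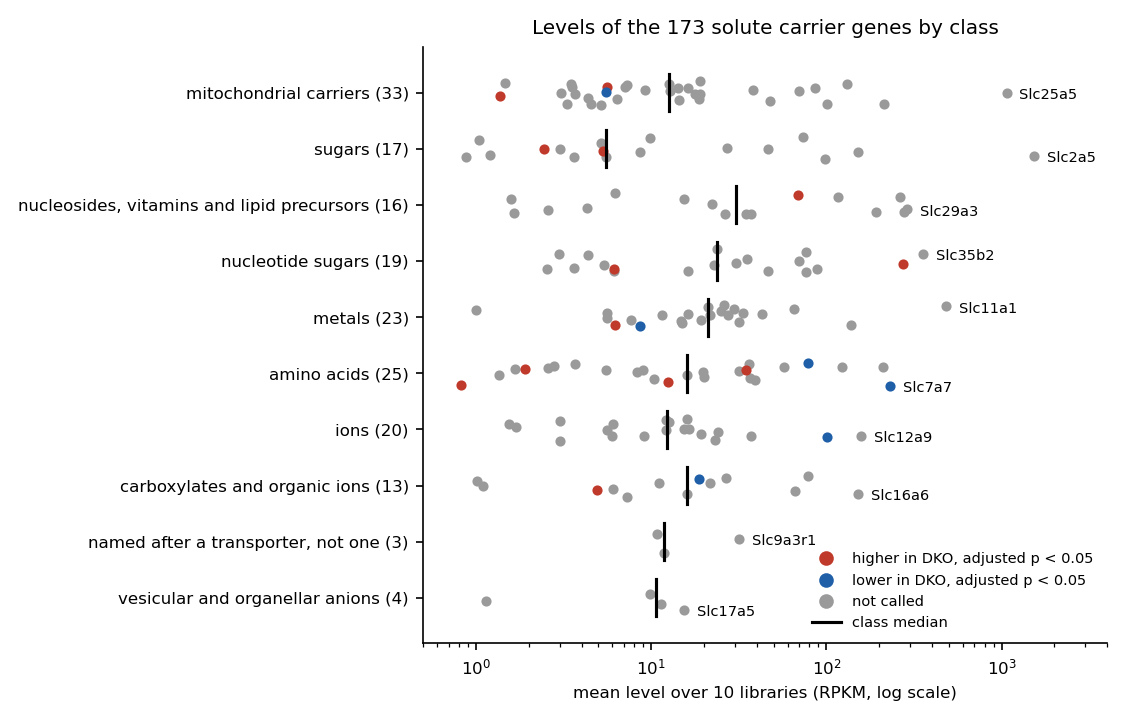
Mean level over 10 libraries (RPKM, log axis) of each of the 173 genes, one point per gene, by class of cargo with the number of members in parentheses. Points are red where higher and blue where lower in DKO by edgeR, the black bar is the class median, the vertical offset of points within a class carries no value, and the most abundant member of each class is named. Slc2a5 and Slc25a5 stand alone above 1000 RPKM, and genes lower in DKO include abundant members of the amino acid and ion classes.

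To ask which carriers differ when both repressors are missing, DKO was compared with WT over all tested genes. Of the 173 members, 19 passed an adjusted p of 0.05 (11.0%, against 6.19% of all tested genes), 13 of them higher in DKO (7.51%, against 4.34%) and 6 lower (3.47%, against 1.85%). Members had to reach a mean count of 50, which only 10399 of the 13916 tested genes did, so these shares are not of genes of like level. Among the 167 members with a mean count of at least 50 in each genotype, 10 were higher and 6 lower. The median log2 fold change of all members was -0.04, close to the -0.01 of all tested genes, and 97 members lay below 0 and 76 above it. The genes higher in DKO were mostly of low to middle level, from Slc1a1 at 0.824 RPKM, while 3 of the 6 lower genes, Slc7a7, Slc9a9 and Slc1a3, were abundant.

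The counts depended on single libraries and on the test. Leaving out WT 3 gave 19 members higher and 8 lower, while 11.4% of all tested genes were called. Dropping DKO 1 or DKO 2 gave 7 and 4, dropping WT 4, WT 5 or DKO 5 gave 7 and 6, and dropping WT 1 gave 8 and 6. In these fits calls over all tested genes fell as well, to 2.83% to 3.85%, while 6.36% to 8.09% of members were called. With WT 1 and WT 5 left out together 7 were higher and 6 lower, with DESeq2 20 and 13, and with a term for libraries numbered 1 to 3 and 4 to 5, 17 and 16. Calls over all tested genes rose as well, to 11.7% with DESeq2 and 10.3% with that term, and fell to 3.12% without WT 1 and WT 5. Genes below that passed with that term but not in the reported fit are not counted as called. The direction also depended on scaling, since the split was 12 to 12 with upper-quartile factors or with library size alone, and 13 to 74 on log2(TPM + 1), where the median of all tested genes moved to -0.26 and 34.6% of them were called. Kept under every one of 25 other settings were 7 calls: Slc37a1, Slc1a1, Slc7a1 and Slc2a6, higher in DKO, and Slc9a9, Slc1a3 and Slc25a29, lower. Of these, Slc1a1 is a member only through its counts in DKO.

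**Figure D2:**
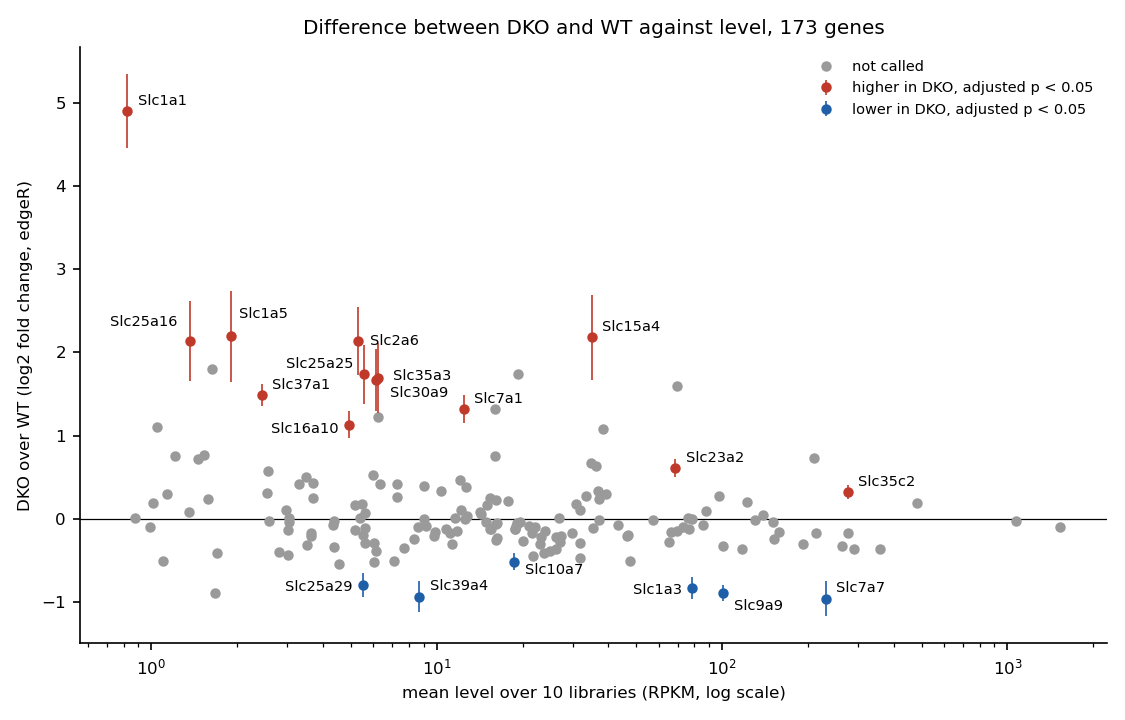
Log2 fold change of DKO over WT (edgeR, y axis) against mean level over 10 libraries (RPKM, log axis) for 173 genes. Red and blue points passed an adjusted p of 0.05, with bars for 1 SE, and grey points did not. Slc1a1 has the highest log2 fold change, 4.90, and the lowest level of all members, and the 6 lower genes lie between -0.51 and -0.96.

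The amino acid class held 25 members. In DKO 4 of them were higher and 2 were lower, and the median log2 fold change was 0.18. For this class and those below, the shares over all tested genes were 4.34% higher and 1.85% lower. It contains the family of glutamate and neutral amino acid transporters (Slc1), where 3 of 4 members passed the test, in both directions. Slc1a1 and Slc1a5, both higher, are members only through their counts in DKO, so the rule itself favoured these calls. The other calls of the class, Slc7a1 and Slc15a4, higher, and Slc1a3 and Slc7a7, lower, did not depend on it.

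Slc1a1, the neuronal glutamate, aspartate and cysteine transporter EAAC1, had the largest change of any member. It was nearly silent in WT, with 0 to 6 counts per library and 20.3 in all 5 libraries, and in DKO it had 87 to 165 counts. CPM were 0.144, 0, 0.198, 0.206 and 0.226 in WT and 7.05, 5.75, 3.86, 3.55 and 3.78 in DKO. Every DKO library lay above every WT library (log2 fold change 4.90, SE 0.44, adjusted p = 8.32e-05, edgeR). The value of the fold rests on the few WT counts. Slc1a1 reached the count minimum only through DKO, at a mean of 4.05 counts in WT and 112 in DKO, so the rule itself favoured a rise. An antisense transcript, 4430402I18Rik, overlaps the exons of Slc1a1 and stood at 0.924 ± 0.239 CPM in WT and 0.773 ± 0.221 in DKO. The kit does not mark strand, so reads of the shared exons cannot be told apart, and their part in these values was not tested.

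Slc1a3, the glial glutamate transporter GLAST, fell. Its CPM were 392, 299, 312, 238 and 281 in WT and 206, 165, 173, 159 and 152 in DKO, without overlap (log2 fold change -0.83, SE 0.13, adjusted p = 0.00401). The gene is best known in astrocytes, whose 6 markers examined summed to 1.83 to 4.50 CPM in WT and 3.50 to 5.19 CPM in DKO, with 0 of 4 tested markers past the threshold of edgeR and 0 at an unadjusted p of 0.05; Aqp4 was at 0.129 ± 0.0878 and 0.135 ± 0.0666 CPM.

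Slc1a5, the glutamine and neutral amino acid exchanger ASCT2, was rare and also reached the count minimum only through DKO. It stood at 0.180, 2.16, 2.06, 0.823 and 0.414 CPM in WT and at 4.74, 4.73, 3.00, 5.67 and 7.48 CPM in DKO (log2 fold change 2.19, SE 0.54, adjusted p = 0.0368). WT 1 and WT 5 were lowest. The call was lost under 10 of 25 settings, with adjusted p up to 0.201 (effective length as an offset), and leaving out WT 4, WT 5, DKO 1, DKO 2, DKO 4 or DKO 5 brought the adjusted p to 0.0624 to 0.0876.

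The cationic amino acid transporters moved in opposite directions. Slc7a1, or CAT1, which brings arginine and lysine into the cell, was measured at 15.2, 12.2, 11.7, 12.3 and 9.93 CPM in WT and at 43.1, 29.3, 29.2, 24.2 and 27.0 CPM in DKO. DKO 1 was highest, and no WT library reached the lowest of DKO (log2 fold change 1.32, SE 0.17, adjusted p = 0.000941). Slc7a7, the light chain of the exchanger y+LAT1 that releases cationic amino acids, had 360, 329, 307, 563 and 689 CPM in WT and 230, 202, 222, 249 and 255 CPM in DKO. The WT libraries were spread widely, with WT 4 and WT 5 high, while the DKO libraries lay close together below all of them (log2 fold change -0.96, SE 0.21, adjusted p = 0.024). The adjusted p was 0.0631 without WT 4, 0.0644 without DKO 1 and 0.0715 without DKO 2. Its exons overlap those of Oxa1l on the other strand, which stood at 48.8 ± 9.36 and 43.0 ± 3.27 CPM. A further light chain of high level, Slc7a8 (LAT2, an exchanger of neutral amino acids), did not pass: it stood at 463, 917, 798, 450 and 252 CPM in WT and at 1052, 978, 776, 1015 and 953 CPM in DKO (log2 fold change 0.73, SE 0.28, adjusted p = 0.151), with WT 1, WT 4 and WT 5 below all of DKO. The sodium-coupled taurine transporter Slc6a6 had a like spread, at 27.1 and 27.0 CPM in WT 1 and WT 5, 93.9 to 96.4 CPM in WT 2, WT 3 and WT 4, and 99.4 to 116 CPM in DKO (adjusted p = 0.31).

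Slc15a4, a histidine and peptide transporter of endolysosomes that is known for its part in signalling by nucleic acid sensing Toll-like receptors, was called but rested on part of the DKO libraries. Its CPM were 26.8, 19.1, 41.7, 21.4 and 21.5 in WT and 162, 210, 40.1, 28.4 and 150 in DKO. DKO 1, 2 and 5 stood far above every WT library, whereas DKO 3 and DKO 4 lay below WT 3 (log2 fold change 2.18, SE 0.51, adjusted p = 0.0288). Its call was lost under 14 of 25 settings, with adjusted p up to 0.125, among them leaving out any single WT library other than WT 3 (0.0642 to 0.0752) or DKO 1, DKO 2 or DKO 5 (0.0633 to 0.0755). Its relative Slc15a3, also lysosomal, stood at 30.6 ± 7.21 RPKM in WT and 32.8 ± 2.55 RPKM in DKO. The glutamine and neutral amino acid carriers of the Slc38 family, 6 members from Slc38a1 to Slc38a10, had 0 calls, with Slc38a10 the most abundant at 115 ± 34.8 and 130 ± 29.9 RPKM.

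Of the 17 sugar carriers, 2 were higher in DKO and 0 lower, at a median log2 fold change of -0.09. Slc37a1, an exchanger of glucose-6-phosphate and phosphate, had the smallest p of any member. It stood at 2.74, 2.97, 3.08, 3.37 and 3.42 CPM in WT and at 7.48, 9.55, 9.18, 8.89 and 8.50 CPM in DKO, with a coefficient of variation of 9.14% and 9.10% (log2 fold change 1.48, SE 0.13, adjusted p = 6.98e-05). Its relatives Slc37a2, Slc37a3 and Slc37a4 did not pass, at log2 fold changes of -0.10, -0.20 and -0.27. Slc2a6, the lysosomal hexose transporter GLUT6, stood at 3.50, 3.74, 4.07, 0.699 and 1.81 CPM in WT and at 13.5, 13.7, 16.0, 11.0 and 6.50 CPM in DKO, without overlap (log2 fold change 2.13, SE 0.41, adjusted p = 0.0116). The facilitated glucose transporters of the plasma membrane stood at 50.1 ± 6.17 RPKM in WT and 43.3 ± 2.57 in DKO for Slc2a1 (GLUT1), and at 5.02 ± 1.07 and 5.31 ± 1.21 for Slc2a3 (GLUT3), and neither passed the test. Slc50a1, a sugar efflux protein of the Golgi, stood at 154 ± 7.45 and 148 ± 5.07 RPKM.

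**Figure D3:**
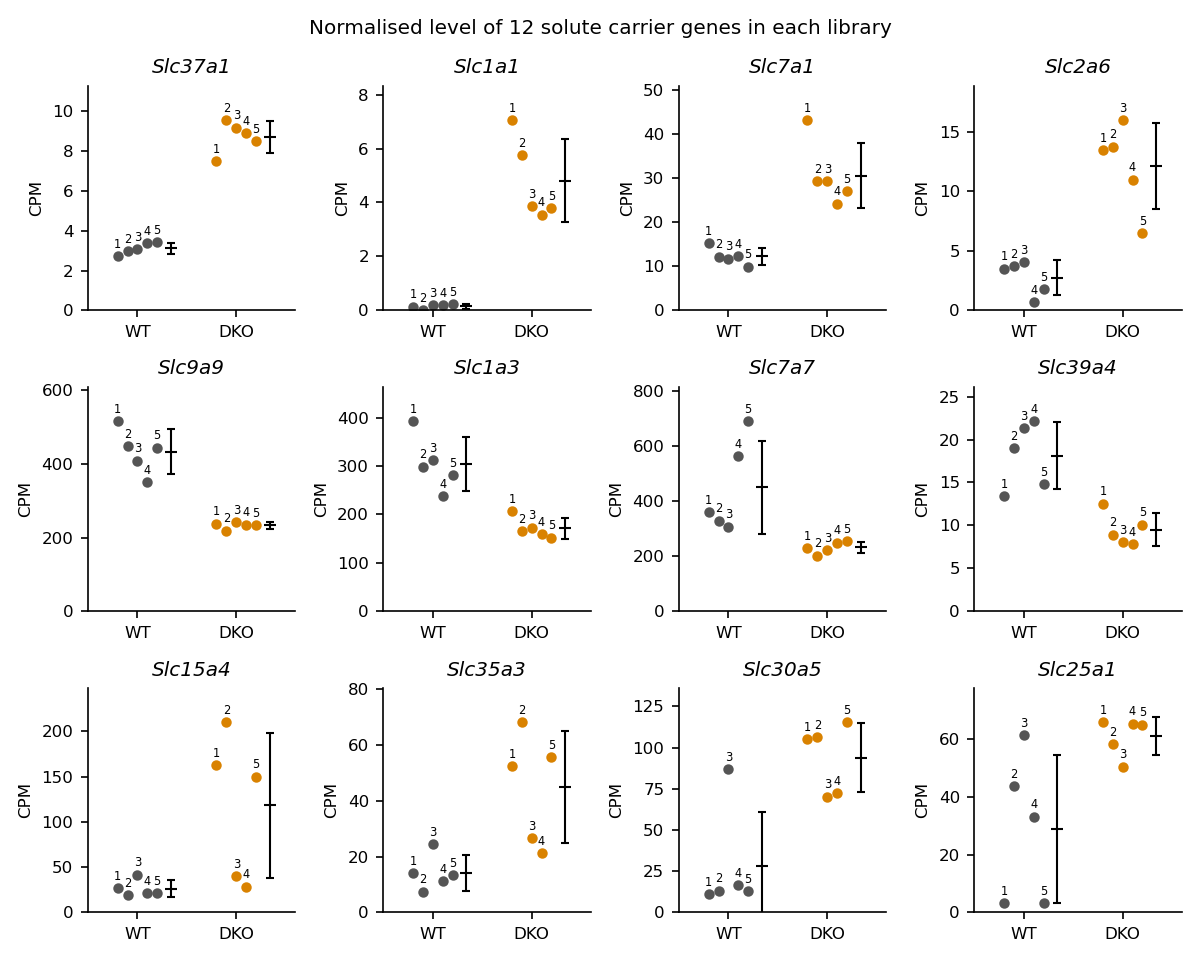
CPM (y axis from 0) of 12 genes in each library, with the replicate number above each point and the mean ± SD of 5 libraries as a bar at the right of each genotype. In the upper 2 rows the genotypes do not overlap. In the bottom row, Slc15a4 and Slc35a3 are high in DKO 1, 2 and 5, Slc30a5 is as high in WT 3 as in DKO, and Slc25a1 is low in WT 1 and WT 5.

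The mitochondrial carriers (Slc25) formed the largest family, with 33 members, 2 higher, 1 lower and a median log2 fold change of -0.02. The abundant ones did not pass the test: Slc25a5 and Slc25a4, both ADP/ATP carriers, Slc25a3, which imports phosphate, and Slc25a11, which exchanges malate for oxoglutarate, had log2 fold changes of -0.03, -0.08, -0.02 and -0.17. Slc25a29, a carrier of basic amino acids, fell. It stood at 8.94, 8.23, 7.51, 8.92 and 11.6 CPM in WT and at 4.70, 5.04, 5.06, 5.95 and 5.31 CPM in DKO (log2 fold change -0.79, SE 0.14, adjusted p = 0.00917), without overlap. Slc25a25, a calcium-regulated exchanger of ATP-Mg and phosphate, stood at 5.01, 3.78, 11.9, 4.57 and 5.72 CPM in WT and at 26.0, 25.1, 12.3, 11.7 and 28.0 CPM in DKO. WT 3 lay with DKO 3 and DKO 4, between the other libraries of both genotypes (log2 fold change 1.74, SE 0.36, adjusted p = 0.0171, and 0.0898 without WT 1 and WT 5). Its exons overlap those of Naif1 on the other strand, which was not called. Slc25a16, linked to the uptake of coenzyme A, was likewise high in DKO 1, 2 and 5, at 1.87, 1.10, 2.77, 1.11 and 1.32 CPM in WT and 8.93, 12.1, 2.32, 2.89 and 9.86 CPM in DKO (log2 fold change 2.14, SE 0.48, adjusted p = 0.0244). That call was lost, at adjusted p of 0.0501 to 0.0658, without WT 1, WT 2, WT 4, WT 5, DKO 1, DKO 2 or DKO 5. Slc25a16 reached the count minimum only through DKO, so the rule itself favoured a rise.

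Slc25a1, the citrate carrier, and Slc25a39, the mitochondrial glutathione carrier, varied within WT. Slc25a1 stood at 3.17, 43.6, 61.3, 33.2 and 3.20 CPM in WT and at 50.5 to 65.8 CPM in DKO, with a log2 fold change of 1.08 and an SE of 0.68 (adjusted p = 0.36). WT 1 and WT 5 were far below the rest. Slc25a39 stood at 11.7, 33.7, 81.5, 36.8 and 10.6 CPM in WT and at 120, 118, 69.5, 91.3 and 127 CPM in DKO (log2 fold change 1.59, SE 0.49, adjusted p = 0.0768, and 0.00405 without WT 3). WT 3 was the WT library nearest DKO, so the smaller p without it is no support for a difference.

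The 23 metal carriers had 1 member higher and 1 lower, with a median log2 fold change of -0.10. Both called members move zinc. Slc39a4, or ZIP4, which imports zinc, fell from 13.4, 19.0, 21.3, 22.1 and 14.8 CPM in WT to 12.5, 8.92, 8.07, 7.83 and 10.1 CPM in DKO (log2 fold change -0.93, SE 0.18, adjusted p = 0.013). The groups came close, WT 1 at 13.4 against DKO 1 at 12.5, without overlap. Slc30a9, of the family of zinc exporters, stood at 5.04, 4.46, 7.27, 5.43 and 4.29 CPM in WT and at 18.5, 36.6, 6.78, 6.97 and 16.9 CPM in DKO (log2 fold change 1.69, SE 0.42, adjusted p = 0.0386). As for Slc15a4, DKO 3 and DKO 4 lay below WT 3, and 15 of 25 settings ended the call, among them leaving out WT 1, WT 2, WT 4, WT 5, DKO 1, DKO 2 or DKO 5 (adjusted p of 0.0725 to 0.0907). Slc30a5, a zinc transporter of the secretory pathway, showed the largest coefficient of variation in WT, 117%, at 11.1, 13.2, 87.1, 16.6 and 12.8 CPM, while DKO stood at 105, 106, 70.3, 72.4 and 115 CPM. WT 3 lay within the DKO range and the other WT libraries far below it. The log2 fold change was 1.74 with an SE of 0.55 (adjusted p = 0.0892), and without WT 3 it was 2.81 with an SE of 0.20 (adjusted p = 1.59e-05). Leaving out the 1 WT library that lay with DKO lowers the p by itself, so that fit is no support for a difference. The copper transporters Slc31a1 and Slc31a2 and the iron transporter Slc11a2 did not pass, Slc31a2 at a log2 fold change of -0.28 (SE 0.09, adjusted p = 0.0764, and 0.0442 with the term for library numbers) without overlap between genotypes. Slc39a7, which releases zinc from the endoplasmic reticulum, was second in level in this class, at 137 ± 12.6 and 141 ± 11.8 RPKM.

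Among the 20 carriers of inorganic ions 0 were higher and 1 lower, at a median log2 fold change of -0.04. Slc9a9, the sodium and proton exchanger NHE9 of endosomes, fell from 515, 447, 408, 351 and 443 CPM in WT to 237, 219, 242, 235 and 234 CPM in DKO. The DKO libraries were unusually close together, and all lay below the lowest of WT (log2 fold change -0.89, SE 0.10, adjusted p = 0.000358). Its relatives Slc9a8 and Slc9a7, also sodium and proton exchangers of organelles, did not pass. Slc9a8 had a log2 fold change of -0.05, and Slc9a7, at 3.96 and 2.78 CPM in WT 1 and WT 5 against 19.9 to 37.2 CPM in the other WT libraries, had a log2 fold change of 0.75 (SE 0.59). Slc12a9, of the family that couples potassium and chloride, was the most abundant of the class, at 168 ± 42.2 and 148 ± 23.4 RPKM. The phosphate transporter Slc20a2 was higher in every DKO library than in any of WT but did not pass (log2 fold change 0.76, SE 0.22, adjusted p = 0.0627, and 0.0334 with the term for library numbers).

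Of 13 carriers of carboxylates and organic ions, 1 was higher and 1 lower, with a median log2 fold change of -0.16. Slc16a10, or TAT1, which carries aromatic amino acids although it belongs to the monocarboxylate family, stood at 8.76, 6.58, 7.03, 7.16 and 10.9 CPM in WT and at 17.7, 20.7, 18.9, 13.9 and 17.3 CPM in DKO (log2 fold change 1.13, SE 0.17, adjusted p = 0.00218). Every DKO library was above every WT library, and of 25 settings log2(TPM + 1) and log2(TPM + 0.1) ended the call (adjusted p = 0.107 and 0.102, limma). The lactate transporters of the same family did not pass: Slc16a3 (MCT4) had a log2 fold change of 0.00 (SE 0.12), and Slc16a1 (MCT1) had one of 0.27 (SE 0.10, adjusted p = 0.142), without overlap between genotypes. Slc16a6 was the most abundant of the class at 165 ± 29.0 and 139 ± 19.6 RPKM. Slc10a7, which belongs to the bile acid transporter family and is known to affect calcium in the cell, fell from 41.4, 40.5, 31.7, 39.2 and 42.4 CPM to 24.6, 26.0, 29.8, 28.0 and 28.2 CPM (log2 fold change -0.51, SE 0.10, adjusted p = 0.0161). WT 3 and DKO 3 came closest, and the adjusted p was 0.0523 without DKO 1, 0.0518 without DKO 2 and 0.0847 without WT 1 and WT 5. Slc22a17, a receptor for lipocalin, stood at 30.4 CPM in WT 3, at 5.45 to 8.53 CPM in the other WT libraries and at 20.7 to 38.5 CPM in DKO (adjusted p = 0.0983, and 0.000113 without WT 3). Here too WT 3 was the WT library lying with DKO, so the smaller p without it is no support for a difference.

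The 16 carriers of nucleosides, vitamins and lipid precursors had the highest median level of any class, 30.5 RPKM, and 1 was higher in DKO and 0 lower. Their summed RPKM were 1364 to 1591 in WT and 1119 to 1319 in DKO, without overlap, although single genes of high level did not pass. In every other class the summed RPKM of WT and DKO overlapped, and the sums were not tested. Slc29a3, which releases nucleosides from the lysosome, stood at 921 to 1000 CPM in WT and 634 to 897 CPM in DKO (log2 fold change -0.36, SE 0.11, adjusted p = 0.0832). Slc44a2, a choline transporter-like protein, had a log2 fold change of -0.30 (SE 0.08, adjusted p = 0.0527), also without overlap. Slc29a1, the equilibrative nucleoside transporter of the plasma membrane, had one of -0.32 (SE 0.11, adjusted p = 0.111). With the term for library numbers these 3 passed in edgeR, at adjusted p of 0.0398 for Slc29a3, 0.0361 for Slc44a2 and 0.0290 for Slc29a1. Calls over all tested genes rose under that term as well, from 6.19% to 10.3%. Slc23a2, the sodium-coupled transporter of ascorbate, was the member that rose, from 180, 224, 202, 192 and 198 CPM to 356, 288, 340, 253 and 282 CPM (log2 fold change 0.61, SE 0.11, adjusted p = 0.00737). The libraries did not overlap, and among 25 settings its call was lost on TPM alone, in 3 of them. Slc19a2, a thiamine transporter, stood at 7.19 CPM in WT 3, at 0.790 to 1.74 CPM in the other WT libraries and at 7.18 to 11.7 CPM in DKO (adjusted p = 0.0615, and 0.000112 without WT 3). The fatty acid transporter Slc27a4 was likewise high in WT 3, with 26.7 CPM in WT 3, 7.81 to 10.1 CPM in the other WT libraries and 20.3 to 37.2 CPM in DKO (adjusted p = 0.0603, with 0.000338 without WT 3 and 0.0491 with the term for library numbers). For Slc19a2 and Slc27a4, the smaller p without WT 3 follows from leaving out the WT library nearest DKO and is no support for a difference.

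The 19 members of the Slc35 family, which bring nucleotide sugars and PAPS into the Golgi and the endoplasmic reticulum, had 2 higher and 0 lower, with a median log2 fold change of -0.02. Slc35a3, the UDP-N-acetylglucosamine transporter, stood at 14.1, 7.39, 24.5, 11.3 and 13.3 CPM in WT and at 52.4, 68.2, 26.5, 21.3 and 55.7 CPM in DKO (log2 fold change 1.67, SE 0.37, adjusted p = 0.0237). DKO 1, 2 and 5 were again high, and DKO 4 lay below WT 3. The call was lost without WT 1, WT 4, WT 5, DKO 1, DKO 2 or DKO 5 (adjusted p of 0.0528 to 0.0649). Slc35c2, which takes part in the fucosylation of Notch, was the one gene above 100 RPKM that rose, from 283, 280, 262, 293 and 289 CPM to 390, 325, 313, 358 and 370 CPM. The change was small (log2 fold change 0.32, SE 0.08, adjusted p = 0.0393), 17 of 25 settings ended the call, and on log2(TPM + 1) and log2(TPM + 0.1) the sign turned, to -0.050 and -0.051. Leaving out any one library other than DKO 3 also ended it, at adjusted p of 0.0599 to 0.105. The remaining 4 vesicular and organellar anion carriers, led by the lysosomal sialic acid exporter Slc17a5 at 16.3 ± 2.13 and 14.7 ± 1.90 RPKM, had 0 calls, and likewise the 3 genes that carry an Slc symbol but are no transporters, Slc9a3r1, a scaffold protein at 35.1 ± 7.18 and 28.4 ± 1.54 RPKM, Slc7a6os and Slc4a1ap.

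**Figure D4:**
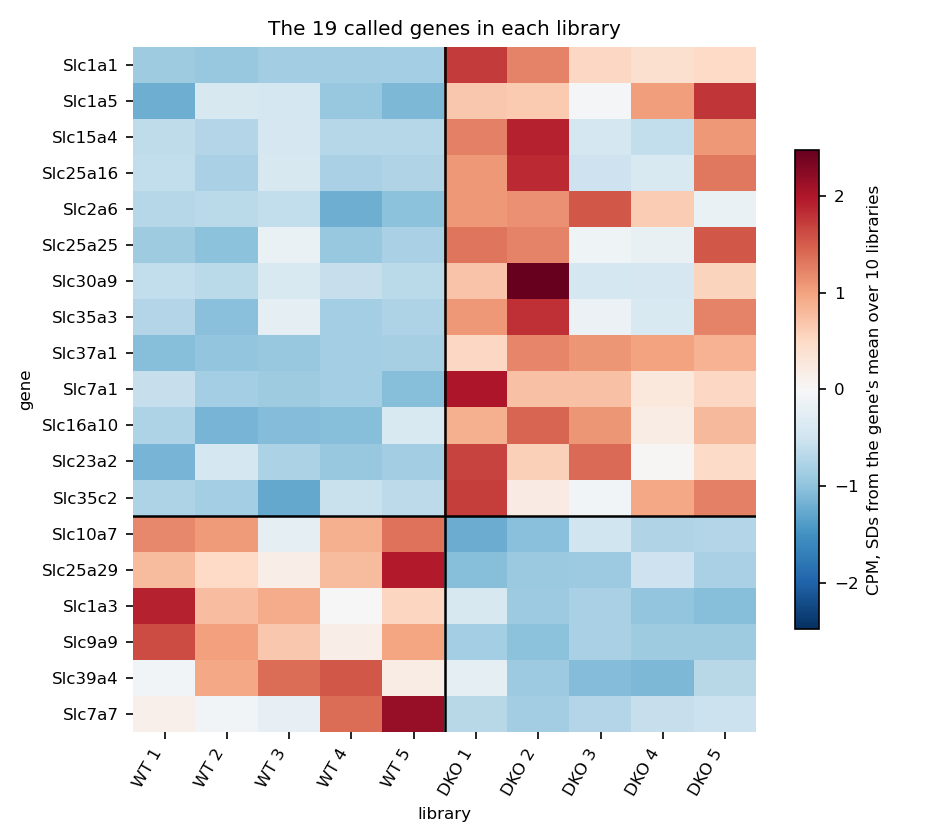
CPM of the 19 called genes (rows) in each of 10 libraries (columns), as SDs from the gene's mean over all libraries, blue below and red above it. The vertical line divides WT from DKO and the horizontal line divides the 13 genes higher in DKO from the 6 lower. Slc15a4, Slc25a16, Slc25a25, Slc30a9 and Slc35a3 are pale or blue in DKO 3 and DKO 4.

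Members differed in how uniform they were across libraries. Of the 19 called members, 14 had no overlap between genotypes. The other 5, Slc15a4, Slc25a16, Slc25a25, Slc30a9 and Slc35a3, had WT 3 within the range of DKO, and DKO 1, DKO 2 and DKO 5 above all other libraries. In all, 25 members had no overlap (14.5%, against 7.62% of all tested genes), 11 higher and 14 lower in DKO, and 11 of these 25 were not called, among them Slc25a53, Slc25a14, Slc16a13 and Slc35a1, with log2 fold changes of -0.54, -0.50, -0.44 and -0.30. Slc25a53 and Slc16a13 passed with the term for library numbers (adjusted p = 0.0102 and 0.0146, edgeR). With WT 3 left out, 45 members had no overlap (26.0%, against 14.8% of tested genes), whereas leaving out any other single library gave 25 to 31. Of all tested genes, 8.45% to 10.8% had no overlap in those cases. All tested genes include those under the mean count of 50, so these shares too are not of genes of like level. The calls gained without WT 3 were Slc30a5, Slc19a2, Slc25a39, Slc22a17, Slc27a4, Slc48a1 and Slc20a2, higher in DKO, and Slc46a3 and Slc12a2, lower. For Slc30a5, Slc19a2, Slc25a39, Slc22a17 and Slc27a4, WT 3 was the WT library nearest DKO, so their gain is no support for a difference. In WT, the median coefficient of variation of members was 18.4%, and in DKO 13.4%, close to the 17.7% and 13.6% of all tested genes with a mean count of at least 50.

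The length of the transcripts, which the rule did not use, was compared as the mean length that the files give for each gene, weighted by the abundance of its isoforms. Of 163 members with a test, 0 passed (limma, adjusted p; 7 at an unadjusted p of 0.05), and 0.0283% of all genes tested for length passed. The smallest unadjusted p belonged to Slc10a7, at 1874 ± 142 bases in WT and 2301 ± 211 bases in DKO (adjusted p = 0.449). Its fall in level is thus larger in RPKM, from 24.4 ± 3.90 to 13.1 ± 1.59, than in CPM.

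Chromosome 6, which holds both deleted genes, held 7 members, of which 4 lay within 20 Mb of one of them. By edgeR 0 of the 7 were called, against 11.0% of all members and 6.19% of all tested genes. At these shares 7 genes are too few for 0 calls to say anything of the region. They were not tested apart from the rest.

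Transporters outside the members were described from the same fit, in which 4.34% of all tested genes were higher in DKO and 1.85% lower. Of the 4 Slc genes left out by name, Slc7a11, the cystine and glutamate exchanger, was lower in DKO (log2 fold change -1.22, SE 0.22) and Slc7a5, the large neutral amino acid exchanger, higher, with 37.8 ± 26.0 CPM in DKO against 6.22 ± 2.57 in WT, while their heavy chain Slc3a2 and the iron exporter Slc40a1 did not pass. Below the minimum count, Slc16a8 and Slc10a6 were called higher, from 0.0484 and 0.248 CPM to 0.863 and 2.04 CPM. Of 35 tested transporters that carry other symbols, 4 were higher, Ank, which exports pyrophosphate, from 6.80 ± 1.07 to 17.1 ± 1.52 CPM, the sphingosine-1-phosphate exporter Spns2 from 5.25 ± 0.679 to 8.28 ± 0.521 CPM, the mitochondrial serine carrier family member Sfxn3 from 26.4 ± 4.54 to 39.8 ± 2.28 CPM and the lysosomal Mfsd1 from 289 ± 51.4 to 443 ± 32.8 CPM. In the same list 2 were lower, the organic anion transporter Slco4a1, from 117 ± 6.08 to 50.1 ± 5.78 CPM (log2 fold change -1.23, adjusted p = 3.88e-05), and Spns3, from 35.1 ± 5.81 to 16.7 ± 1.75 CPM. Of 22 tested ABC transporters, Abcd4, of lysosomal cobalamin export, was higher (0.58, SE 0.11) and Abcg3 lower (-0.80, SE 0.17). The accompanying subunits of monocarboxylate transporters had 2 tested genes, of which 0 passed in edgeR.

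The promoters of members were read because Bhlhe40 and Bhlhe41 bind the E-box CACGTG. RefSeq promoters (GRCm38.p6, 250 bases before to 50 after a start) were held for 132 members, 17 of them called. The E-box, a palindrome, was found in 24 of the 132 (18.2%, against 11.7% of the promoters of tested genes and 8.09% of all), none of them among the 12 higher or 5 lower genes with a promoter. The longer TCACGTGA, which contains it, was found in 4 members (3.03%, against 2.24% of tested genes), Slc25a36, Slc35a5, Slc36a1 and Slc37a3, of which 0 were called by edgeR. The ATF4 element TGATGCAA, searched on both strands, was found in 3 (2.27%, against 0.739%), of which Slc7a7 was called, as lower. A match is a description of these letters in this window and says nothing of binding. Shown are the windows of Slc1a1 and Slc37a1, the members with the smallest p, which hold none of these motifs, of Slc7a7, with the ATF4 element in capitals, and of Slc36a1, the lysosomal amino acid transporter, with both E-boxes in capitals, 5′ to 3′ on the strand of the gene.
Slc1a1, chr19:28834885-28835184, plus strand: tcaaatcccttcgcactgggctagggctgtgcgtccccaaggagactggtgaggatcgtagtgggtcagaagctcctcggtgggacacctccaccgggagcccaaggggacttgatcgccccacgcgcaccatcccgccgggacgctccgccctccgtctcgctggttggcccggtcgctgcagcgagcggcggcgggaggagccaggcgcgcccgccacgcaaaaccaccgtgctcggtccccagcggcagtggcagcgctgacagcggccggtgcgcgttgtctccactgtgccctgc
Slc37a1, chr17:31295974-31296273, plus strand: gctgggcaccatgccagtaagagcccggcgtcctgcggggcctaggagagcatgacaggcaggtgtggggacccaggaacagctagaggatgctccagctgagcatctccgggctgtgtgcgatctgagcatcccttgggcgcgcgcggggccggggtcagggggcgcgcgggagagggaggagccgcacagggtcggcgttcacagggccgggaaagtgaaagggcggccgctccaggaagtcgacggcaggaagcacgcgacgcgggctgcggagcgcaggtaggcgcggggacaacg
Slc7a7, chr14:54417895-54418194, minus strand: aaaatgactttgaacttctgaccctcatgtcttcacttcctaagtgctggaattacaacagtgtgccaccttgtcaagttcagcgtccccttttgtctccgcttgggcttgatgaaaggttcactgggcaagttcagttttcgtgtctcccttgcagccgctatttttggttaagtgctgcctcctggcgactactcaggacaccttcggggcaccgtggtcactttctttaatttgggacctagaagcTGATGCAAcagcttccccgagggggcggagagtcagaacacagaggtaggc
Slc36a1, chr11:55204090-55204389, plus strand: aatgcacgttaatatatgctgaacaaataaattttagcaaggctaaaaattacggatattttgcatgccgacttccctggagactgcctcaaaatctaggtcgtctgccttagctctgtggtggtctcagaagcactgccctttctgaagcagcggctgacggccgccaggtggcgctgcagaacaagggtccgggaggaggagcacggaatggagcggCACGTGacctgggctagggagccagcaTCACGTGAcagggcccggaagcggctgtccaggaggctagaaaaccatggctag
In the window of Slc36a1, which did not pass (log2 fold change -0.24, SE 0.12, adjusted p = 0.249), the second E-box is the longer form. The element of Slc7a7 also lies in the window of a further, overlapping start of the gene.

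Markers of other cells that the sort could hold were summed in each library. Neuron markers summed to 7.77 to 9.55 CPM in WT and 8.48 to 12.7 CPM in DKO, endothelial and mural markers to 6.42 to 11.9 and 6.50 to 13.5 CPM, choroid plexus markers to 0.356 to 1.02 and 0.383 to 1.29 CPM, and monocyte and neutrophil markers to 2.73 to 5.66 and 4.44 to 6.56 CPM. Oligodendrocyte markers summed to 197 to 230 and 198 to 213 CPM, most of them from Cnp, while the defining Mog stood at 0.424 ± 0.361 CPM in WT. B cell markers summed to 418 to 677 CPM in WT and 526 to 886 CPM in DKO, most of them from Ighm, and red blood cell markers to 0.0424 to 13.1 and 0.772 to 16.2 CPM. Markers of border-associated macrophages reached 4.62 to 15.7 CPM in WT and 6.05 to 26.7 CPM in DKO, where Pf4 alone of their list was called, higher. The part of these cells in the values of the members was not tested, and in bulk RNA fewer cells of a kind and less RNA per cell cannot be told apart.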

How the data were processed

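Reads of sorted mouse microglia were trimmed (cutadapt 2.6), checked (FastQC 0.11.8) and aligned to mm10 (STAR 2.5.3a), per the submitters' processing notes. For the quantification step, the software was not given in the sources used here. Each deposited file holds, per gene, an unnormalized estimated count, a TPM set by the authors to the same total in every library, and lengths in bases. The TruSeq kit does not mark strand, so reads of overlapping genes on opposite strands cannot be told apart. Estimated counts were rounded and kept by filterByExpr (minimum count 10), and after TMM scaling edgeR 4.0.16 (R 4.3.3) fitted a quasi-likelihood model with genotype as its one term. Benjamini-Hochberg adjustment ran over 13916 genes, with a threshold of 0.05. The SE is the log2 fold change divided by the square root of the F statistic. Spreads are SDs of 5 libraries. Lengths were tested with limma 3.58.1 on log2 length over 10588 genes whose length varies. Scripts were tested on simulated counts. Coordinates are those of GENCODE M21, matched by gene identifier. Classes group families by cargo. The members, lists and tests were chosen with earlier results of these data known. The study fitted a mixed model (dream), which was not used here.

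Named genes are the called members, the 15 most abundant, the leading 2 of each class, the 5 on either side of the count minimum, members without overlap and called genes of the lists. Relatives of these, and members with a wide spread or 1 library apart, were named after their values were seen. Other settings tried were scaling by RLE, by upper quartiles or by library size alone, all genes with a count, genes at a CPM of 1 or more in 5 libraries, robust edgeR, DESeq2 1.42.0, limma voom, limma on log2 TPM with 1 or 0.1 added, effective length as an offset, a replicate block, a term for numbers 1 to 3 and 4 to 5, and leaving out libraries. TPM recomputed without Gm23935 was chosen after seeing the data.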

Additional observations from a re-analysis of the deposited data

Results flagged for a closer look

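Each genotype's 5 libraries were examined for all 173 members and the 5 genes just outside the minimum count, 356 groups in all. In 23 of them the highest or lowest library lay apart, its gap to the nearest of the others being more than 0.71 of the range of the group, and chance gives this in about 1 group in 20. By library, WT 3 was the one apart in 6 groups, DKO 3 in 5, WT 5 in 3, and each of the others in 0 to 2.

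WT 3 was the highest of WT in all its 6. Slc30a5 stood at 87.1 CPM there, against 11.1 to 16.6 in the other WT libraries, Slc22a17 at 30.4 against 5.45 to 8.53, Slc27a4 at 26.7 against 7.81 to 10.1, Slc19a2 at 7.19 against 0.790 to 1.74, Slc25a25 at 11.9 against 3.78 to 5.72, and the scaffold protein Slc9a3r2, just outside the minimum count, at 2.73 against 0 to 0.0849.

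In DKO 3, Slc25a36 stood at 103.7 CPM against 68.0 to 73.9 in the other DKO libraries, the zinc transporter Slc39a9 at 151.6 against 104.8 to 117.9, and the mitochondrial sodium and calcium exchanger Slc8b1 at 92.0 against 72.0 to 75.7, while the phosphate transporter Slc20a1 stood at 4.89 against 6.60 to 7.09 and Slc22a21, an organic cation and carnitine transporter, at 0.772 against 2.01 to 2.40. In WT 5, Slc25a45 stood at 238.6 CPM against 177.5 to 186.8 in the other WT libraries, Slc25a38, the mitochondrial glycine carrier, at 13.96 against 19.99 to 22.13, and Slc2a9, a urate transporter, at 4.03 against 6.66 to 7.60.

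Slc7a1 stood at 43.1 CPM in DKO 1, against 24.2 to 29.3 in the other DKO libraries, and its adjusted p stayed under 0.05 without DKO 1. Slc36a2, a transporter of small amino acids, stood at 3.46 CPM in DKO 1 against 4.76 to 5.17. In DKO 2, Slc35e3 stood at 17.7 CPM against 5.82 to 7.82, and the riboflavin transporter Slc52a2 at 40.0 against 47.0 to 49.2. In DKO 5, Slc20a2 stood at 7.14 CPM against 5.15 to 5.43, and Slc7a6 at 27.1 against 18.7 to 21.1. In WT 1, Slc25a14, a mitochondrial carrier, stood at 12.6 CPM against 8.10 to 9.37. In WT 2, Slc25a12, the aspartate and glutamate carrier, stood at 39.2 CPM against 30.1 to 32.4. In WT 4, Slc25a28, the mitochondrial iron importer mitoferrin 2, stood at 2.88 CPM against 1.10 to 1.43.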

How the results depend on the processing

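Of the 173 members, 19 passed in the reported fit, and leaving out each of the 10 libraries in turn gave 11 to 27, with 7 to 19 higher and 4 to 8 lower. Calls over all tested genes ranged from 2.83% to 11.4% when each library was left out. DESeq2 gave 33 (20 higher, 13 lower), a term for libraries numbered 1 to 3 and 4 to 5 gave 33 (16 lower), log2(TPM + 1) 87 (74 lower) and log2(TPM + 0.1) 88 (76 lower). Over all tested genes 11.7%, 10.3%, 34.6% and 34.6% were called under these 4, against 6.19%. The median log2 fold change of all tested genes was -0.26 and -0.35 on these TPM scales, and without Gm23935 in the TPM, 24 members passed, 13 of them lower. Upper-quartile factors and library size alone each gave 12 lower, at all-gene medians of -0.11 and -0.08, and effective length as an offset gave 9 lower. Without WT 1 and WT 5, 7 were higher, and with a minimum mean count of 200 in place of 50, 8 were higher. The share of calls that were higher, over all genes, was 70.1% in the reported fit, 54.6% under upper-quartile scaling, 53.7% for unscaled library sizes, 54.9% on TPM without Gm23935, 59.8% with the term for numbers and 13.0% on log2(TPM + 1). The value of Slc35c2 turned to -0.050 on log2(TPM + 1) and -0.051 on log2(TPM + 0.1).

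With the replicate number as a block, 11 members passed, 6 higher and 5 lower, of which 10 are among the 19. Of all tested genes, 3.93% passed in that fit. Deviations of libraries with the same number correlated at -0.12, 0.09, -0.29, 0.23 and 0.12, and 1 of the 5 WT libraries, WT 4, correlated best with its own number, so the numbers were not taken as pairs. Length calls were 0 to 1 when each library was left out in turn; the 1, Slc8a1, passed without WT 3 (adjusted p = 0.0367). Depth limits the rarest members most, since Slc1a1 had 0 to 6 counts per WT library.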
